A study of Mus musculus with 17 samples.

Results

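The respiratory chain genes of the cell nucleus were followed in mouse kidney. They were chosen by name and annotation alone: protein-coding genes outside the mitochondrial genome whose symbols begin with Nduf, Uqcr, Cox4 to Cox8 or Atp5, or are Sdha, Sdhb, Sdhc or Sdhd. The rule found 92 of the 42794 genes in the deposited table. They encode 36 complex I subunits (7 core and 29 accessory), 8 complex I assembly factors, 4 complex II subunits, 8 complex III subunits, 11 common complex IV subunits (Ndufa4 among them), 7 tissue-restricted isoforms assigned to complex IV, and 16 complex V subunits. The other 2 are Cox7a2l, a factor of respiratory supercomplexes, and Atp5s, known as coupling factor B.

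The respiratory chain passes electrons from NADH (complex I) and succinate (complex II) through complexes III and IV to oxygen. Complexes I, III and IV pump protons, and complex V uses the proton gradient to make ATP. Most subunits are nuclear genes, while a small set of core subunits is encoded in the mitochondrial genome. Proximal tubule and thick ascending limb cells of the kidney are rich in mitochondria, since salt and solute transport there depends on ATP.

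RNA of whole kidney was sequenced in 17 libraries of 3 groups. The 4 control libraries carry the genotype WT and NC in their titles. The 6 Ctr shRNA libraries have Ctr shRNA as genotype but are titled DKD_Vehicle, so it is uncertain if a control hairpin or only vehicle was given. The 7 libraries labelled Gcgr shRNA, titled DKD_shRNA, belong to a hairpin against the glucagon receptor meant for proximal tubule cells, and both shRNA groups share the title word DKD, in a series on kidney disease of diabetes. For the induction of disease, the delivery of the hairpin and the strain, sex and age of the mice, nothing is given in the sources used here. The 4 control libraries held Gcgr itself at 20.8 ± 2.42 FPKM (SD), the 6 Ctr shRNA libraries at 9.74 ± 2.14 FPKM and the 7 labelled Gcgr shRNA at 13.02 ± 1.70 FPKM, which goes against that label as whole-kidney RNA shows it. Directions below are therefore between labelled libraries. The labels do not tie libraries to separate animals, so a p-value here reflects only how these samples spread, which may be technical.

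Each library held 13997657 to 17107876 reads recovered from the FPKM values (a read density per gene length, scaled to the library), and 2.25 to 2.88% of them fell on the 92 genes. One library stood apart. Ctr shRNA 20 held transcripts of fat and of the urinary tract lining, with Adipoq, a fat cell hormone, at 45.3 FPKM against at most 2.43 elsewhere, and results are given with and without it. In bulk RNA, fewer cells of a type and less RNA per cell cannot be told apart. Of the 92 genes, 32 share exonic bases with another gene in a GRCm38 annotation, 29 of them with a gene on the other strand, and the use of strand in counting is not given in the sources used here.

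Promoters of many respiratory chain genes are known to bind NRF1, GABPA (an ETS family factor) and YY1. RefSeq promoter sequences on GRCm38.p6, from 250 bases before to 50 after the annotated start, were matched for 74 of the 92 genes. Those not matched included Ndufa2, Ndufb9, Ndufaf6, Ndufs1, Sdhc, Uqcrq, Uqcrb, Uqcrc2, Ndufa4l2, Cox6a2, Cox4i2, Cox4i1, Cox6c, Atp5s, Atp5a1, Atp5f1 and Atp5mpl. The palindromic core of the NRF1 motif, spelled by the capitals in the Ndufaf4 sequence, stood in 7 of the 74 promoters (9.46%) and in 0.977% of all 27025 promoters. On either strand, CCGGAAG (ETS) stood in 17 (23.0%) against 9.12%, and AAGATGGC (YY1) in 9 (12.2%) against 2.88%. In the members, 0 matches of one motif overlapped a match of another, and a match describes the sequence only. All 9 YY1 matches lay on the gene's own strand and began 11 to 39 bases after the start, whereas 5 of 7 NRF1 matches lay before it, from position -162 to -42. The stretches shown belong to the genes on which the comparisons turn (Cox6b2 and Ndufaf5) and to an NRF1 and an ETS example (Ndufaf4, a complex I assembly factor, and Uqcr11, a small complex III subunit). They run 5′ to 3′ on the gene's strand up to its start in lower case, bases in annotated exons left out, and capitals mark a motif match.
Cox6b2 (chr7:4753095-4753225, minus strand): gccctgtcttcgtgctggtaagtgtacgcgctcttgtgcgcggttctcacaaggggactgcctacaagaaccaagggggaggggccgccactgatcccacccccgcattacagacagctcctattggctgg
Ndufaf5 (chr2:140170565-140170645, plus strand): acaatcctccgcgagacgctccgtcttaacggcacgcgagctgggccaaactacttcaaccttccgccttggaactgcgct
Ndufaf4 (chr4:24897833-24898082, plus strand): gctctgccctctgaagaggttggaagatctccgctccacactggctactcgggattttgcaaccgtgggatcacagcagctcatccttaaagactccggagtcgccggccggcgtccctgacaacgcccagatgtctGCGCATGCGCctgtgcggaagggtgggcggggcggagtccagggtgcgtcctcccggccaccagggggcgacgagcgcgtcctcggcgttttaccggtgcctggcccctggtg
Uqcr11 (chr10:80406831-80407071, minus strand): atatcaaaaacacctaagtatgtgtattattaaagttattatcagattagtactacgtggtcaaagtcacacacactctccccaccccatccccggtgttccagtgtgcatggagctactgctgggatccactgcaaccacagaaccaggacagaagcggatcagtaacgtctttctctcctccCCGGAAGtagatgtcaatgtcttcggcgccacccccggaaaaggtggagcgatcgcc
No match stands in the printed stretch of Cox6b2 or anywhere in its matched promoter. Ndufaf5 has its NRF1 match after the start, from base 17, outside the printed stretch.

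In control kidney the subunits of complexes I to V had a median of 126 FPKM and ranged from 3.48 FPKM (Ndufb2) to 1110 FPKM (Cox8a), with values per gene length. Complex IV common subunits were highest, with a median of 267 FPKM, followed by complex III with 189 FPKM, complex II with 180 FPKM, complex V with 124 FPKM, complex I core with 115 FPKM and complex I accessory subunits with 95.1 FPKM. Assembly factors of complex I, which are not part of the finished enzyme, had a median of 13.9 FPKM, and the 7 tissue-restricted isoforms one of 2.38 FPKM. The 2 large catalytic subunits of complex V, Atp5a1 (alpha) and Atp5b (beta), were at 710 ± 22.1 and 688 ± 27.3 FPKM (SD, n = 4). Sdha, the flavoprotein of succinate dehydrogenase, was at 197 ± 10.5 FPKM and Uqcrfs1, the Rieske iron-sulfur protein of complex III, at 338 ± 6.76 FPKM. Ndufs1, the largest complex I subunit, was the lowest core member at 29.02 ± 1.275 FPKM. The low value of Ndufb2 belongs to a gene model of 5628 bases that overlaps Braf on the other strand and Gm42420 on its own, so its level is uncertain.

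**Figure D1:**
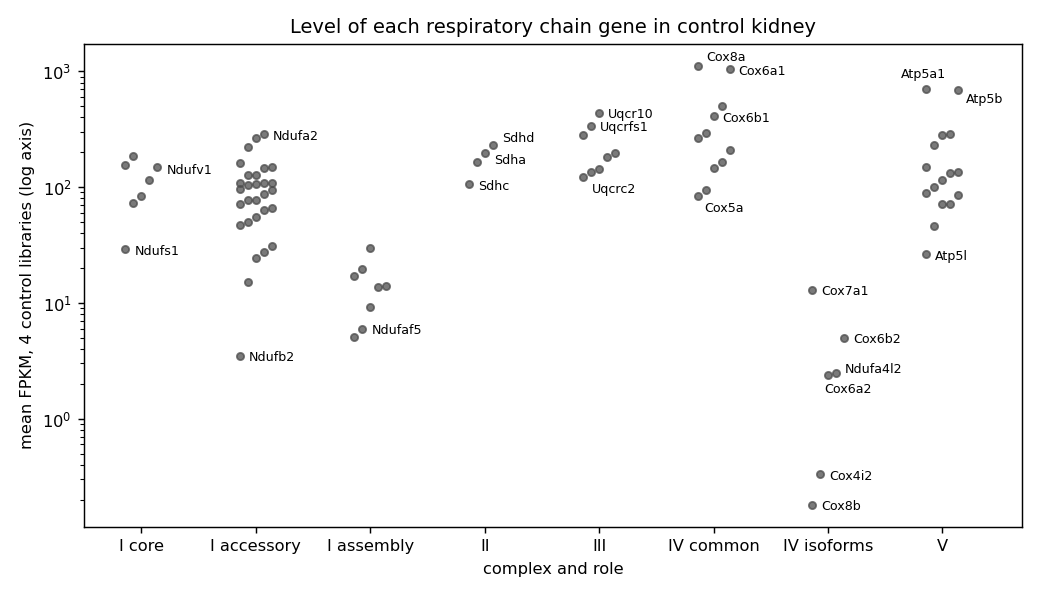
Mean FPKM of each member in the 4 control libraries (log axis) by complex and role, 1 point a gene, without Cox7b2, which was listed at 0 there, Cox7a2l and Atp5s. Common complex IV subunits reach 1110 FPKM (Cox8a), while the tissue-restricted isoforms lie at 12.9 FPKM (Cox7a1) or below.

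Levels were held closely within the control group and less so in the shRNA groups. The median coefficient of variation (SD over mean) of the subunits was 7.56% in control, 17.3% in Ctr shRNA (13.9% without Ctr shRNA 20) and 12.01% in those labelled Gcgr shRNA. Over all 17 libraries the highest value of a subunit was 1.71 times its lowest at the median, from 1.27 times to 2.96 times. Ndufa12, an accessory subunit, varied most widely inside control. It was at 54.3, 61.9, 44.1 and 29.9 FPKM in control 37, 38, 39 and 41, which covers most of the range of the other groups.

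Ctr shRNA (n = 6) was first compared with control (n = 4), the disease label with wild-type kidney. These groups differ both in the title word DKD and in the label of a hairpin or vehicle, and their effects cannot be told apart here. Of the 90 members that passed the filter on low values, 2 rose and 0 fell by limma's test (2.22%), where 7.49% of all 13279 genes tested were called (3.58% higher, 3.91% lower). Those that rose were Cox6b2, a testis-enriched isoform of complex IV subunit 6B, and Ndufaf5, an assembly factor that modifies a complex I subunit. Neither is a common subunit of complexes I to V, and of the 75 common subunits 0 were called, with 3 at an unadjusted p under 0.05 (23.4% of all genes) and 2 (Cox5a and Ndufa6, both higher) called by limma voom on the recovered reads. That low count rests on Ctr shRNA 20: without it 27 of the 75, all higher, had an unadjusted p under 0.05. Of all 13279 genes, 1745 were then higher and 1597 lower at that cut (25.2% together). The members lay slightly above control all the same: 78 of 90 had a log2 difference above 0 and the median was 0.13, beside a median of 0.01 over all genes tested. A log2 difference here is one of group means in log2(FPKM + 1), and a gene is called at an adjusted p under 0.05.

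Cox6b2 (ENSMUSG00000051811, GRCm38 chromosome 7, 4751792 to 4753094) was at 6.24, 3.64, 5.65 and 4.44 FPKM in control 37, 38, 39 and 41. In Ctr shRNA 1, 4, 6, 8, 19 and 20 it was at 16.8, 18.2, 12.7, 12.7, 9.66 and 7.14 FPKM. The libraries with the label Gcgr shRNA, numbered 13, 15, 29, 31, 32, 34 and 35, held 11.95, 12.3, 14.4, 6.37, 9.24, 10.8 and 8.34 FPKM. Every shRNA library lay above every control library, although Gcgr shRNA 31 exceeded the highest control by little. Between Ctr shRNA and control the log2 difference was 1.17 ± 0.23 (SE), with adjusted p = 0.00524 by limma, from 12.9 ± 4.17 against 4.99 ± 1.17 FPKM (SD). The call held in all 28 alternatives, with adjusted p from 0.000245 to 0.0281. These levels rest on 63 to 323 recovered reads per library, and the gene shares no exonic base with another gene in the annotation.

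Cox6b1, the common isoform of the same subunit, was at 410 ± 34.1 FPKM in control, 492 ± 87.2 in Ctr shRNA and 461 ± 55.1 in those labelled Gcgr shRNA (SD, n = 4, 6 and 7). Its log2 difference between Ctr shRNA and control was 0.25 ± 0.13 (SE; adjusted p = 0.263). Cox6b2 thus stayed the minor isoform in every library. Its share of the summed FPKM of both genes was 1.21 ± 0.313% in control (SD), 2.53 ± 0.658% in Ctr shRNA and 2.28 ± 0.77% in those labelled Gcgr shRNA. The shares in Ctr shRNA, from 1.86 to 3.64%, did not overlap those in control, from 0.924 to 1.51%. In the libraries labelled Gcgr shRNA they ran from 1.33 to 3.19% and overlapped control through library 31.

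Ndufaf5 (ENSMUSG00000027384, GRCm38 chromosome 2, 140170649 to 140203689) was at 5.76, 5.86, 5.08 and 7.10 FPKM in control 37, 38, 39 and 41. Ctr shRNA 1, 4, 6, 8, 19 and 20 held 6.997, 9.004, 7.74, 7.81, 7.97 and 6.35 FPKM, so that 2 of the 6 lay below control 41. The log2 difference of 0.32 ± 0.09 (SE) passed narrowly, with adjusted p = 0.0489 by limma, and the call was lost in 18 of 28 alternatives, 14 of them the leaving out of a single library (adjusted p from 0.00619 to 0.26 over all 28). The other 7 complex I assembly factors of the rule had log2 differences from -0.13 (Ndufaf6) to 0.12 (Ndufaf3), and 0 of them were called.

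**Figure D2:**
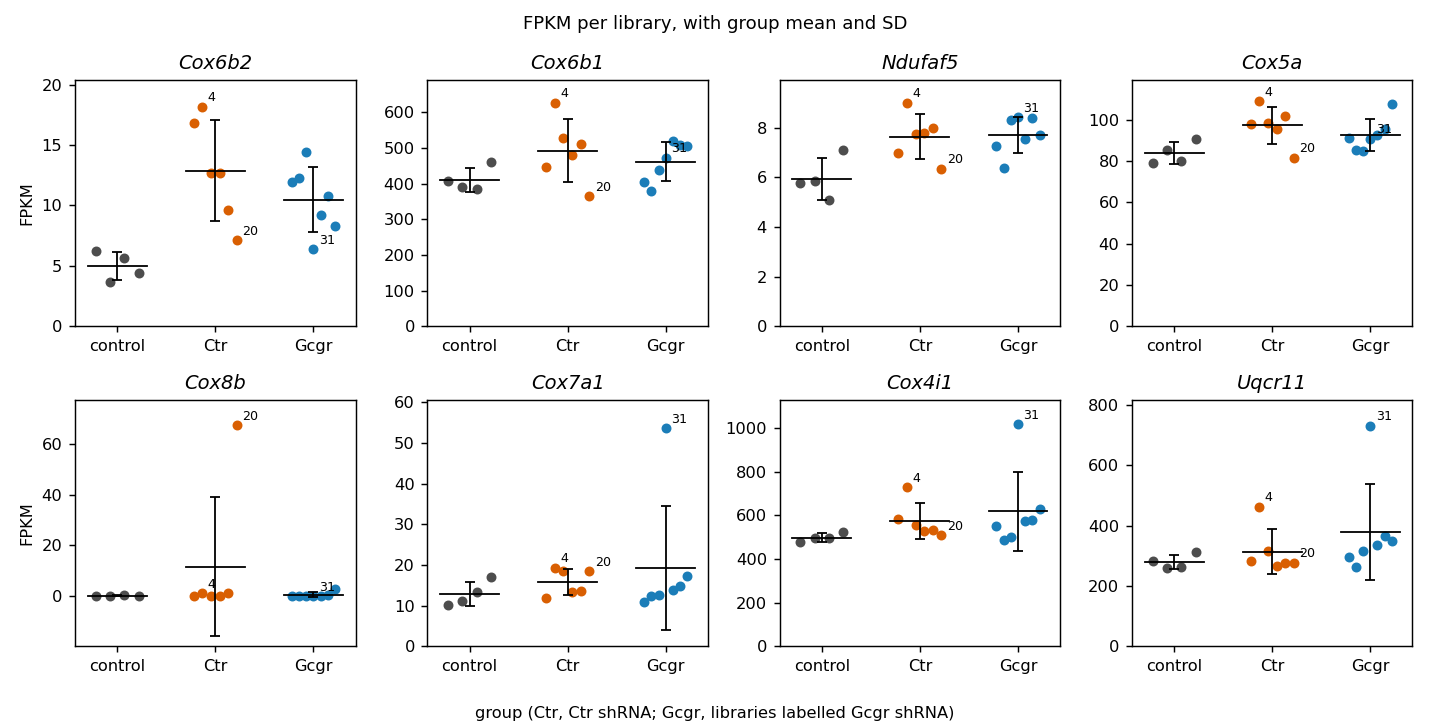
FPKM of 8 members in each library (points), with group mean (line) and SD (bar), for control (n = 4), Ctr shRNA (n = 6) and the libraries labelled Gcgr shRNA (n = 7); numbers mark libraries Ctr shRNA 4 and 20 and Gcgr shRNA 31. Cox6b2 is higher in every shRNA library than in control, Cox8b stands out only in Ctr shRNA 20 (67.5 FPKM), and Cox7a1, Cox4i1 and Uqcr11 are highest in Gcgr shRNA 31.

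By class, the small differences between Ctr shRNA and control were least for complex II, the complex I assembly factors (median log2 difference 0.04) and the core of complex I. Complex I core subunits, which carry the redox centres, had a median log2 difference of 0.07 (7 genes, from -0.04 to 0.18). Ndufv1, which binds NADH, was at 149 ± 3.59 FPKM in control and 147 ± 22.9 in Ctr shRNA (SD), and Ndufs1 at 29.02 ± 1.275 and 30.02 ± 4.007. The 29 accessory subunits, which surround that core, had a median of 0.19, with 26 above 0. Among them Ndufb6, of the membrane arm, was at 122, 118, 123 and 142 FPKM in control and at 152, 210, 174, 148, 170 and 147 FPKM in Ctr shRNA 1, 4, 6, 8, 19 and 20. Ndufb6 and Ndufa13 were the subunits whose groups did not overlap, with log2 differences of 0.39 (adjusted p = 0.188) and 0.28 (adjusted p = 0.293) that did not pass. With Cox6b2 they made 3 of 90 members without overlap, all higher (3.33%), where 4.71% of all genes were higher and 5.41% lower without overlap.

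Complex II, whose 4 subunits are also an enzyme of the citric acid cycle, had a median log2 difference of 0.02, from -0.03 to 0.08. Sdha was at 194 ± 20.9 FPKM in Ctr shRNA against 197 ± 10.5 in control, and Sdhb, its iron-sulfur partner, at 168 ± 21.4 against 163 ± 3.47 (SD). Complex III subunits had a median of 0.17 with 7 of 8 above 0. Uqcrc1, a core protein of complex III, was at 147 ± 15.3 FPKM against 135 ± 3.53, and Uqcr10, the most abundant subunit of that complex, at 528 ± 100.4 against 440 ± 40.1, a log2 difference of 0.25 (adjusted p = 0.271). The 11 common subunits of complex IV all lay above 0, with a median of 0.19. Cox4i1, the common form of subunit 4, was at 574 ± 80.6 FPKM against 499 ± 19.4 (adjusted p = 0.51), and Cox5a, a matrix-facing subunit, at 97.4 ± 9.03 against 83.8 ± 5.32 (adjusted p = 0.133). Complex V subunits had a median of 0.12, with Atp5a1 at 706 ± 86.7 FPKM and Atp5b at 657 ± 78.5 FPKM in Ctr shRNA, both level with control, at log2 differences of -0.02 and -0.08.

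**Figure D3:**
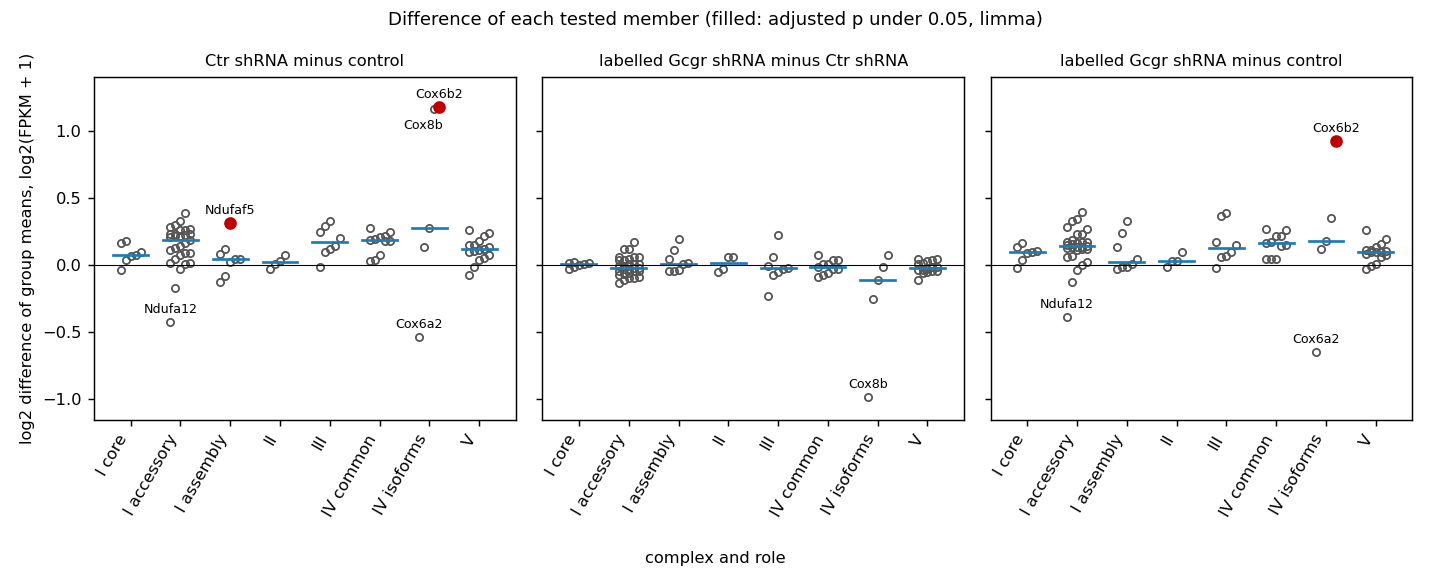
Log2 difference of each tested member in the 3 comparisons, by complex and role, 1 circle a gene, with the median of each class as a bar; filled circles passed limma's test. Cox6b2 is filled in both comparisons with control and Ndufaf5 in the first, and between the shRNA groups no member passed.

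The small shift was not alike in all Ctr shRNA libraries. Relative to the control mean, the median over the 90 tested members was 0.04, 0.47, 0.21, 0.08, 0.19 and -0.22 (log2) in Ctr shRNA 1, 4, 6, 8, 19 and 20, while control libraries lay between -0.08 and 0.12. Ctr shRNA 4 was the highest of the 17 libraries for 59 members and Ctr shRNA 20 the lowest for 60. Without Ctr shRNA 4 the median difference from control was 0.07, and without Ctr shRNA 20 it was 0.19. Among the libraries labelled Gcgr shRNA, numbers 13, 15 and 29 were at -0.02, -0.08 and -0.00, and numbers 31, 32, 34 and 35 at 0.22, 0.25, 0.21 and 0.23, so 3 lay within the control range and 4 above it.

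Other short, abundant transcripts varied alongside the members from library to library. For 291 other protein-coding genes with a gene length under 1500 bases and a mean of 30 FPKM or more, the library median was 0.52 in Ctr shRNA 4, -0.09 in Ctr shRNA 20, and 0.26, 0.27 and 0.27 in Gcgr shRNA 32, 34 and 35. Their median difference between Ctr shRNA and control was 0.16, against 0.17 for the 35 members of the same length and level. The 36 longer abundant members had a median of 0.10, and 1266 longer abundant other genes one of -0.00. Cytosolic ribosomal protein genes, also short and abundant, had a median of 0.25. Of 91, limma called 4 higher (3.58% of all genes), or 7 without Ctr shRNA 20 (4.12% of all genes). By limma voom on the recovered reads 21 were higher, and the share of all genes that voom called is not given here. When each library was centred on the 291 short, abundant genes, the members' median difference became -0.03, so the sign of the small shift depends on that choice. That centring was applied to all members, though only 35 are of that length and level. Of the 291 genes, 26 were themselves higher in Ctr shRNA by limma's test and 5 lower. What part transcript length or RNA quality has in the shift was not tested.

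**Figure D4:**
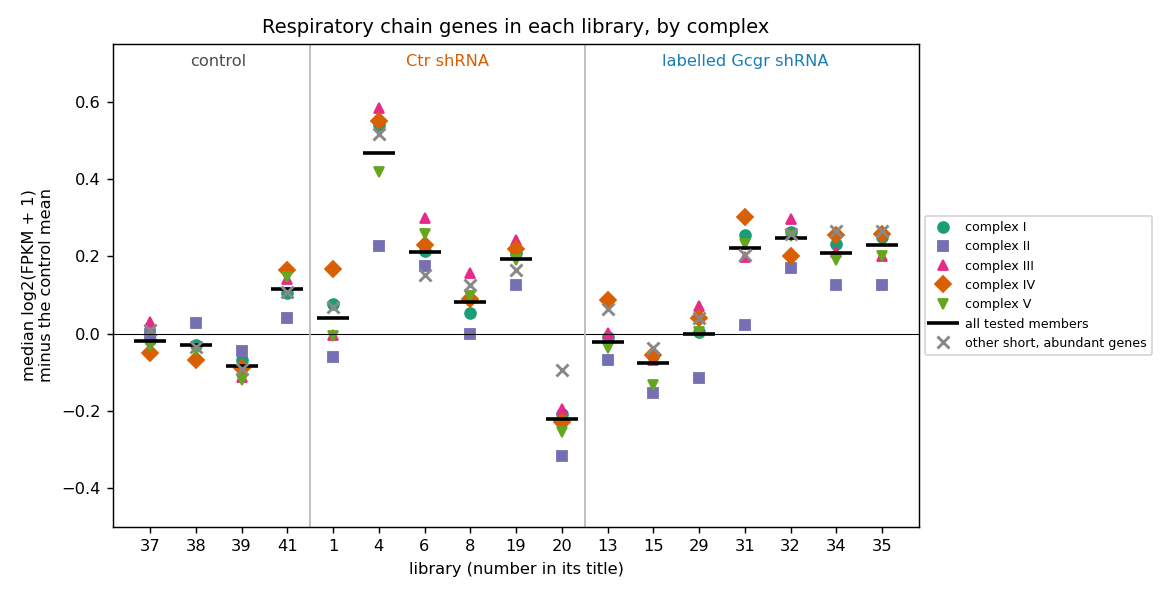
Median log2(FPKM + 1) relative to the control mean in each library, for the subunits of each complex (symbols), all 90 tested members (bars) and 291 other short, abundant genes (crosses). Complexes I, III, IV and V and the crosses mostly move together, from Ctr shRNA 4 at the top (0.47 for all members) to Ctr shRNA 20 at the bottom (-0.22). Complex II shifts less in the libraries labelled Gcgr shRNA, where its middle library median is 0.02, against 0.21 for all members.

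Markers of tubule segments, those rich in mitochondria among them, were lower in Ctr shRNA. Of 18 proximal tubule markers 7 fell in Ctr shRNA by limma's test and 0 rose, with a median log2 difference of -0.42. Of all genes, 3.91% fell and 3.58% rose. Without Ctr shRNA 20, 5 fell and 1 rose (median -0.35), where 3.49% of all genes fell and 4.12% rose. Limma voom gave 6 lower and 1 higher. The libraries labelled Gcgr shRNA were also below control on this list, with a median of -0.30 and 1 marker that fell (0.595% of all genes fell). Of 9 thick ascending limb markers 4 fell in Ctr shRNA (median -0.63), and of 8 intercalated cell markers 6 fell (median -0.68), beside 3.91% of all genes. In the libraries labelled Gcgr shRNA, 0 thick ascending limb markers (median -0.24) and 2 intercalated cell markers (median -0.39) fell against control. Every Ctr shRNA library lay below the control mean on these lists, from -0.67 to -0.07 for the proximal tubule. Of 8 macrophage markers 2 rose and 1 fell in Ctr shRNA, with a median of 0.55 (3.58% of all genes rose and 3.91% fell). Their part in the members' levels was not tested.

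Tissue-restricted isoforms showed where single libraries differed. Cox8b, the heart, muscle and brown fat form of subunit 8, was listed at 0 in 9 of the 17 libraries, was at most 2.83 FPKM in 16 of them and was at 67.5 FPKM in Ctr shRNA 20, from 458 of its 493 recovered reads. The same library held Ucp1, the brown fat uncoupling protein, at 23.9 FPKM (at most 1.37 elsewhere) and Cidea, a lipid droplet protein of brown fat, at 40.4 FPKM (at most 2.39). Of 6 brown fat markers, 2 were not analysed here and the other 4 were highest in Ctr shRNA 20. Skeletal muscle markers analysed here were all under 1 FPKM there. Myl1, at 0.358 FPKM (at most 0.0564 elsewhere), and Ckm, at 0.0364 FPKM (0 elsewhere), were highest in that library. Acta1 (0.138 FPKM), Mb (0.107 FPKM) and Tnnt3 (0) lay within the range of the other libraries. The log2 difference of Cox8b between Ctr shRNA and control was 1.16 with that library and 0.22 without it, and neither was called (adjusted p = 0.455 and 0.763).

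Cox6a2, the heart and muscle form of subunit 6A, had its highest levels in control, though no difference passed. It was at 3.32, 2.35, 1.74 and 2.10 FPKM in control 37, 38, 39 and 41, at 0.763, 1.81, 2.19, 1.12, 2.02 and 0.468 FPKM in Ctr shRNA 1, 4, 6, 8, 19 and 20, and between 0.583 and 1.53 FPKM in the libraries labelled Gcgr shRNA. The last group did not overlap control, at a log2 difference of -0.65 ± 0.20 (SE; adjusted p = 0.113), and the levels rest on 6 to 32 reads per library. Ndufa4l2, a paralog of the complex IV subunit Ndufa4 known as a hypoxia target, was at 2.47 ± 0.708 FPKM in control, 2.97 ± 1.33 in Ctr shRNA and 2.76 ± 0.663 in those labelled Gcgr shRNA (SD). Cox7a1, the heart and muscle form of subunit 7A, was at 12.9 ± 3.00, 15.9 ± 3.24 and 19.4 ± 15.3 FPKM in the same order. Cox4i2, the oxygen-sensitive form of subunit 4, and Cox7b2 did not pass the filter. Cox4i2 lay between 0.148 and 0.985 FPKM, and Cox7b2 was listed at 0 in 15 libraries, with 3 recovered reads in all.

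Leaving out Ctr shRNA 20 added 1 call against control. Of 90 members 3 then rose and 0 fell (7.61% of all genes were called, 4.12% higher and 3.49% lower), namely Cox6b2 (log2 difference 1.32, adjusted p = 0.00156), Ndufaf5 (0.36, adjusted p = 0.0225) and Cox5a (0.26, adjusted p = 0.0424). At an unadjusted p under 0.05 there were 30 of 90 members, 29 of them higher (25.2% of all genes, 1745 higher and 1597 lower). With that library there were 6 (23.4% of all genes). Cox5a was at 79.2, 85.3, 80.2 and 90.8 FPKM in control and at 97.8, 109, 98.3, 95.7 and 102 FPKM in Ctr shRNA 1, 4, 6, 8 and 19, with no overlap, while Ctr shRNA 20 held 81.7 FPKM. The groups did not overlap in 15 members, all higher, where 6.98% of all genes were higher and 6.84% lower without overlap. They were 8 complex I subunits, 2 of complex III (Uqcrc1 and Uqcrq), 3 common subunits of complex IV (Cox4i1, Cox5a and Cox6a1), Cox6b2 and Atp5g3, a membrane ring subunit of complex V. The medians were 0.13 for complex I core, 0.27 for complex I accessory subunits, 0.23 for complex III, 0.26 for complex IV common subunits and 0.20 for complex V, and remained least for complex II at 0.08. The 291 other short, abundant genes had a median of 0.20 in that fit and 1266 longer ones of 0.04.

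The second comparison, of the libraries labelled Gcgr shRNA (n = 7) with Ctr shRNA (n = 6), was one between labels. Gcgr in whole-kidney RNA was not lower under that label than in Ctr shRNA, and the comparator may have had vehicle only. Whole-kidney RNA does not show Gcgr in proximal tubule cells alone, for which the hairpin was meant. No member passed limma's test, 0 of 90 had an unadjusted p under 0.05, and limma voom on the recovered reads also called 0. Over all 13279 genes, Gcgr among them, limma called 0 (0%) and 972 (7.32%) had an unadjusted p under 0.05. The members' median log2 difference was -0.02, with 38 above 0 and 52 below, and class medians ran from -0.02 to 0.02 among core, accessory and assembly genes of complex I and complexes II, III, IV (common subunits) and V. Those with the smallest p were Uqcrb, a complex III subunit, at -0.23 ± 0.15 (SE) and Ndufaf8, a complex I assembly factor, at 0.20 ± 0.13, with adjusted p of 0.793 each. Uqcrb was at 131, 230, 221, 180, 182 and 121 FPKM in Ctr shRNA 1, 4, 6, 8, 19 and 20 and between 126 and 180 FPKM in the libraries labelled Gcgr shRNA, a range inside that of Ctr shRNA. Cox6b2 was at -0.25 ± 0.20 (adjusted p = 0.834) and its groups overlapped.

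Without Ctr shRNA 20 the members leaned lower in the libraries labelled Gcgr shRNA. The median was -0.08, with 75 of 90 below 0, all 16 complex V subunits and all 7 complex I core subunits among them, and 0 members were called by limma (0.0151% of all genes), with 2 at an unadjusted p under 0.05 (7.39% of all genes). Without Ctr shRNA 4 it was 0.05 instead, so the sign of this shift rests on single libraries.

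The third comparison set the libraries labelled Gcgr shRNA (n = 7) against the same control libraries (n = 4) as the first, so the values of both share those controls. The disease label and the hairpin label cannot be told apart in it either. Of 90 members 1 rose and 0 fell (2.02% of all genes were called, 1.42% higher and 0.595% lower), again Cox6b2, at 10.5 ± 2.71 against 4.99 ± 1.17 FPKM (SD), a log2 difference of 0.92 ± 0.22 (SE, adjusted p = 0.0378 by limma). That call was lost in 14 of 28 alternatives, with adjusted p from 0.00292 to 0.167. The members' median was 0.12, with 76 of 90 above 0. Cox6b2 was higher and Cox6a2 lower without overlap (3.31% and 2.23% of all genes). Ndufaf5 was at 7.71 ± 0.739 FPKM, a log2 difference of 0.33 that did not pass (adjusted p = 0.0771). By class the medians were 0.09 for complex I core, 0.14 for complex I accessory, 0.03 for complex II, 0.13 for complex III, 0.16 for complex IV common and 0.10 for complex V subunits.

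The library labelled Gcgr shRNA 31 held high levels of some members while others lay within the range of its group. Relative to the mean of the other 6 libraries of its group, 13 of 90 members were more than 0.5 higher in log2 (14.4%), against 5.29% of all genes tested. Uqcr11 was at 730 FPKM there and between 263 and 367 FPKM in the others, Cox4i1 at 1017 against 487 to 628, and Cox7a1 at 53.7 against 10.99 to 17.4. Atp5a1, at 705 FPKM (661 to 756 in the others), and Atp5b, at 676 FPKM (629 to 720), lay within the range, and so did the short genes Cox8a, at 1098 FPKM (988 to 1317), and Uqcr10, at 503 FPKM (423 to 577). Cox6b2 was at its lowest of the group there, at 6.37 FPKM.

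Genes that build or run the chain but lie outside the naming rule included few that passed. Of 19 tested assembly factors of complex IV, Coa3 rose from 88.3 ± 9.28 to 120 ± 17.5 FPKM in Ctr shRNA (SD; log2 difference 0.43, adjusted p = 0.0356) and Cox15, which makes heme A, fell from 16.6 ± 1.39 to 13.2 ± 1.599 FPKM (-0.31, adjusted p = 0.0297). Those were 2 of 19 (7.49% of all genes), with 6 at an unadjusted p under 0.05 (23.4% of all genes). Without Ctr shRNA 20, and likewise by limma voom, 3 were called, 2 higher and 1 lower. The calls of Coa3 and Cox15 were lost in 8 and 9 of 28 alternatives. Of 9 further complex I assembly factors, 8 genes of complex III and cytochrome c, 5 of complex V and 4 complex II assembly factors, 0 were called by limma in this comparison (3 at an unadjusted p under 0.05 in all, and 1, a complex I assembly factor that was lower, by limma voom), with Cyc1, cytochrome c1, at a log2 difference of 0.05 and Cycs, cytochrome c, at 0.19. Of 18 citric acid cycle genes 0 were called (median 0.03, with 1 at an unadjusted p under 0.05 and 1 lower by limma voom). Without Ctr shRNA 20 their median was 0.10, with 16 above 0 and 0 called. Of them 6 (5 higher, 1 lower) then had an unadjusted p under 0.05 (25.2% of all genes). Of 77 mitochondrial ribosomal protein genes 3 rose (3.58% of all genes), at a median of 0.09. Without Ctr shRNA 20 there were 6 (4.12% of all genes), and by limma voom also 6.

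Regulators of mitochondrial genes had mostly small differences, the larger of them downward. Of 17 tested, 0 were called by limma or limma voom in any of the 3 comparisons, with 5 (4 lower, 1 higher) at an unadjusted p under 0.05 between Ctr shRNA and control (23.4% of all genes), where their median was -0.07. Named after their values were seen, Esrrb, an estrogen-related receptor, was at 5.80 ± 1.12 FPKM in control and 3.80 ± 1.38 in Ctr shRNA (SD; log2 difference -0.54, adjusted p = 0.106). Polg2, the accessory subunit of mitochondrial DNA polymerase, had a log2 difference of -0.35 (adjusted p = 0.0875). Ppargc1a, the coactivator PGC-1 alpha, was at 9.19 FPKM in control, 7.41 in Ctr shRNA and 8.07 in those labelled Gcgr shRNA on average (log2 difference -0.30 between the first pair, adjusted p = 0.156). Nrf1, Gabpa, Esrra and Tfam had log2 differences of 0.05, 0.00, -0.01 and -0.05 between Ctr shRNA and control. The 13 mitochondrially encoded subunits had a median of -0.04 there, with 0 called by limma (0 at an unadjusted p under 0.05, and 0 by limma voom), and their summed FPKM was lowest in Ctr shRNA 20, at 44420, and highest in Ctr shRNA 19, at 88630, around a control mean of 67940.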

How the data were processed

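Per the labels' protocols, Trizol served for extraction and a SMARTer kit for library preparation. The authors deposited 1 table of FPKM per gene for 17 libraries, per the file headers. GRCm38 and mm10 are the builds named per the submitters' processing notes. For the aligner, the counter and the annotation release, nothing is given in the sources used here. An incomplete last line (1) was left out. Of 92 members, 86 had the coordinates of a GRCm38 annotation.

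Values were tested as log2(FPKM + 1), a scale that understates changes of low genes. The 13279 genes tested reached 1 FPKM in 4 libraries or more. One mean per group was fitted to all libraries with limma 3.58.1 (limma-trend, R 4.3.3). P-values were adjusted by the Benjamini-Hochberg method over all tested genes, and a gene was called under 0.05. The steps were tested on simulated data. Low FPKM values were whole multiples of 1 read (100%, tolerance 0.05 of a read, up to 200 reads). All 42 replicate pairs differed beyond sampling noise, at a chi-square per degree of freedom of 8.14 to 87, so none is a pair of copies. Each library was counted as 1, although these values do not show that libraries come from separate animals. Members, lists and tests were chosen with earlier results of these data known. Genes are named if called (up to 12 a direction), if among the 3 smallest p where none is, as representatives of a complex, as tissue isoforms, or as highest or lowest of a complex. Others, such as Ndufb6, Ndufa13 and the genes high in library 31, were chosen after their values were seen. The values of 1 member are not reported here. Alternatives covered the pseudocount, filter, scaling, weights, groups fitted, voom and each library left out. Counts by limma voom stand without its share over all genes.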

Additional observations from a re-analysis of the deposited data

Results flagged for a closer look

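In 28 of 276 gene and group combinations (10.1%), the highest or lowest library lay further from its nearest neighbour than Dixon's 95% limit allows. Chance gives about 1 in 20, and genes of 1 library are not independent.

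Ctr shRNA 20 held Cox8b at 67.51 FPKM. Ctr shRNA 4 was far above its group for Cox4i1 (730.6 FPKM), Cox7a2l (145.2 FPKM), Ndufa7 (89.87 FPKM), Ndufaf3 (19.32 FPKM) and Uqcr11 (462.9 FPKM).

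The library labelled Gcgr shRNA 31 was far above its group for 10 genes. In complex I these were Ndufa7 (105.9 FPKM), Ndufab1 (23.84 FPKM), Ndufb4 (172.1 FPKM) and Ndufb6 (294.7 FPKM). In complex III they were Uqcr11 (730.2 FPKM) and Uqcrq (406.2 FPKM), and among complex IV genes Cox4i1 (1017 FPKM), Cox6c (174.9 FPKM), Cox7a1 (53.66 FPKM) and Cox7c (356.0 FPKM). Gcgr shRNA 35 held Cox8b at 2.83 FPKM.

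Control 41 was far above the other controls for 9 genes. Those of complex I were Ndufa1 (342.4 FPKM), Ndufa5 (141.7 FPKM), Ndufb10 (166.0 FPKM) and Ndufb4 (91.73 FPKM). Those of complex IV were Cox5b (160.4 FPKM), Cox7b (198.7 FPKM) and Cox7c (267.7 FPKM), and those of complex V Atp5k (171.7 FPKM) and Atp5mpl (129.1 FPKM). Control 37 was far below the others for Ndufa4l2 (1.417 FPKM), and control 39 for Atp5s (6.75 FPKM).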

How the results depend on the processing

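Results were recomputed under 28 alternatives, 17 of which left out 1 library each; centring on other short, abundant genes was added after seeing the data. Between Ctr shRNA and control, the 2 members called became 1 with no filter on low values and with only the groups compared, 4 with quantile normalization and with limma voom on recovered reads, and 5 with sample weights and without Ctr shRNA 20 and Gcgr shRNA 31 together. Leaving out 1 library gave 1 to 3. Between those labelled Gcgr shRNA and control, the 1 member called became 0 with no filter, with rescaling to the same total and with limma voom, 2 with rescaling without mitochondrially encoded genes and with only the groups compared, and 3 with sample weights. Leaving out 1 library gave 0 to 1. Between the shRNA groups 0 members were called in all 28. The counts of members called in this paragraph stand without the share of all genes called in the same fit. They therefore do not show if a setting called more genes everywhere. Centred on short, abundant genes, the median log2 difference between Ctr shRNA and control became -0.03 for all members and -0.14 for complex II. Against the same control, the libraries labelled Gcgr shRNA then had medians of -0.033 for all members, and of -0.017, -0.122, -0.028, 0.009 and -0.056 for complexes I to V in order. Leaving out 1 library, the median of all members ranged from 0.07 to 0.19, from 0.10 to 0.17 and from -0.08 to 0.05 in the 3 comparisons (Ctr shRNA against control, labelled Gcgr shRNA against control, and labelled Gcgr shRNA against Ctr shRNA). The cause of these changes was not tested. The count model planned for integer counts was not run, since the values are FPKM. No paired analysis was possible because the groups share no replicate numbers. Levels under about 1 FPKM rest on few reads, which limits what can be said of Cox4i2, Cox7b2 and Cox8b.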
